A study of Mus musculus and Acomys cahirinus with 2 samples.

Results

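The genes described here are 8 cytokine genes of the skin. They are the alarmins Il33 and Tslp, the interleukin-1 family genes Il1a, Il1rn and Il18, the CSF1R ligands Il34 and Csf1, and Il7, a growth factor of lymphocytes. The genes were matched by symbol, with case ignored. All 8 were found among the 28625 symbols of the Mus gene list and 7 among the 24509 symbols of the Acomys gene list. Tslp was not analysed in Acomys. The group was chosen from levels of these genes measured in the same 2 libraries, so their levels by cell class and library are described with no test.

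Each species gave 1 droplet library of ear skin from adult animals, Mus musculus (Mus), the house mouse, and Acomys cahirinus (Acomys), a spiny mouse whose ear holes can close by regrowth. Both were labelled day 0, the series text calls the ears injured, and strain, sex, treatment and the number of animals are not given in the sources used here. Every difference between the libraries therefore joins species, animal, library and reference annotation, which cannot be told apart. Ranges in brackets are exact 95% intervals of the counts (Poisson for levels, binomial for ratios and shares) and cover no error beyond counting.

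Epidermal cells store or make cytokines that alert immune cells when the barrier is broken. IL-33 and IL-1 alpha are alarmins that act when cells are damaged, TSLP acts on dendritic and innate lymphoid cells, and IL-18 is made as a precursor that inflammatory caspases cut. IL-1 receptor antagonist blocks the IL-1 receptor. IL-34 is the ligand that keeps Langerhans cells, the macrophage-like cells of the epidermis, in place, and IL-7 supports T cells and innate lymphoid cells.

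The Mus library gave 6556 cells with a median of 11784 UMIs (unique molecular identifiers, one for each captured transcript) and the Acomys library 4603 cells with a median of 7557. Clusters were named by marker genes as basal keratinocyte-like (3366 Mus and 1085 Acomys cells), suprabasal keratinocyte-like (1602 and 767), hair follicle and appendage-like (900 and 271) and sebocyte-like (268 and 316). All other cells were 420 in Mus and 2164 in Acomys, and 321 and 2002 of them lay in clusters that stayed unnamed. Cells named as types outside the epithelium numbered 99 in Mus and 162 in Acomys. Levels are CPM, the UMIs of a gene per 1000000 UMIs of the 15709 symbols in both gene lists. They are not scaled by transcript length, so a level is compared with the same gene elsewhere and not with another gene.

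The promoters of Il1a, Il18 and Il33 are shown because Il1a and Il18 had most of their Mus UMIs in the same small cluster, whereas Il33 had most of its Mus UMIs in basal cells. Each run holds the 250 bases before a transcription start in the RefSeq table of mouse build GRCm38.p6, written 5′ to 3′ on the strand of the gene. Capitals mark matches to TGANTCA, the AP-1 motif, or TATAAA, the TATA box motif, on either strand, and none of the matches shown overlaps another. Of the 8 genes, 5 had a promoter in that table.
Il1a, chr2:129309973-129310222, minus strand: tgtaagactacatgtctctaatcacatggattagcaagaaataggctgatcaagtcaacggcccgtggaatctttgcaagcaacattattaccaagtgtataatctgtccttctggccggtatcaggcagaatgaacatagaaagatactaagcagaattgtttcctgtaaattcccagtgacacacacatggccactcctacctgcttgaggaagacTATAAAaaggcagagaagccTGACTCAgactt
Il18, chr9:50554450-50554699, plus strand: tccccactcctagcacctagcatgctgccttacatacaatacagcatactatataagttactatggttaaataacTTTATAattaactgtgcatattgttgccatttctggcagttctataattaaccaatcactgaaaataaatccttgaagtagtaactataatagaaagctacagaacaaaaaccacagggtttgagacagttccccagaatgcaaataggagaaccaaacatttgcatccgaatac
Il33, first start, chr19:29924863-29925112, plus strand: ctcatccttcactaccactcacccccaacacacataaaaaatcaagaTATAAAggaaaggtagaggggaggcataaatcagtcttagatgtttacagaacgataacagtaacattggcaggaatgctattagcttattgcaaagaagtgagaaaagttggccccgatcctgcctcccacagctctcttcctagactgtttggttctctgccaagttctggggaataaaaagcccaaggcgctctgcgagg
Il33, second start, chr19:29945540-29945789, plus strand: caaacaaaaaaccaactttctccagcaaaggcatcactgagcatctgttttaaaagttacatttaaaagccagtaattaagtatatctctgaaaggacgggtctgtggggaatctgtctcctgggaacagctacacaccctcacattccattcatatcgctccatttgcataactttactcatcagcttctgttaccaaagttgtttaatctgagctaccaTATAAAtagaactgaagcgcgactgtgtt
Il1a held a TATA box match that began 32 bases before the start and an AP-1 match that began 12 bases before it. The TATA box match of Il18 lay on the opposite strand, 175 bases before the start. Both Il33 starts held a TATA box match, at 203 and 29 bases before the start, and the second start lies within the Il33 gene, which the GENCODE annotation of the same build places at chr19:29925114-29960718. Among 32841 promoters of the same length, 6.75% held an AP-1 match and 12.4% a TATA box match. The NF-kappaB consensus, found in 3.90% of them, had no match in the 4 windows shown. These matches describe letters in the mouse reference and were not measured here.

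Across the 4 epithelial classes, Il18 was higher in Acomys in every class, and Il33 and Il1rn were lower in every class. When 30% of each class was subtracted as free RNA, an alternative chosen after seeing the data, the log2 ratio changed sign in 3 cases. It was -1.61 for Il18 in follicle cells, and 2.27 for Il33 and 0.41 for Il1rn in sebocytes. Nothing was then left of Il18 in Acomys follicle cells, of Il33 in Mus sebocytes, or of Il1rn in sebocytes of either library. The 0.5 counts added to each sum thus set the size of these ratios, and for Il1rn the sign as well. In basal cells, 2 of the 6 genes with at least 20 UMIs over both libraries were at least 2-fold higher in Acomys (Il18 and Il7) and 4 at least 2-fold lower (Il33, Il1rn, Csf1 and Il34). Of all 10393 symbols with as many UMIs there, 15.1% lay that far above the Mus level and 41.3% that far below it, with a median log2 ratio of -0.53. In suprabasal cells 1 of 7 was higher (Il18), 5 were lower (Il33, Il34, Il1a, Il1rn and Csf1) and Il7 lay within 2-fold, against 14.9% and 43.4% of all symbols. In follicle cells 1 of 6 was higher (Il18) and 4 were lower (Il33, Il1rn, Il7 and Csf1), against 12.8% and 42.2%. In sebocytes 1 of 5 was higher (Il18) and 3 were lower (Il33, Il1rn and Il7), against 12.0% and 43.7%. Because the genes were chosen from these levels, nothing is read from their counts beside those shares.

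**Figure D1:**
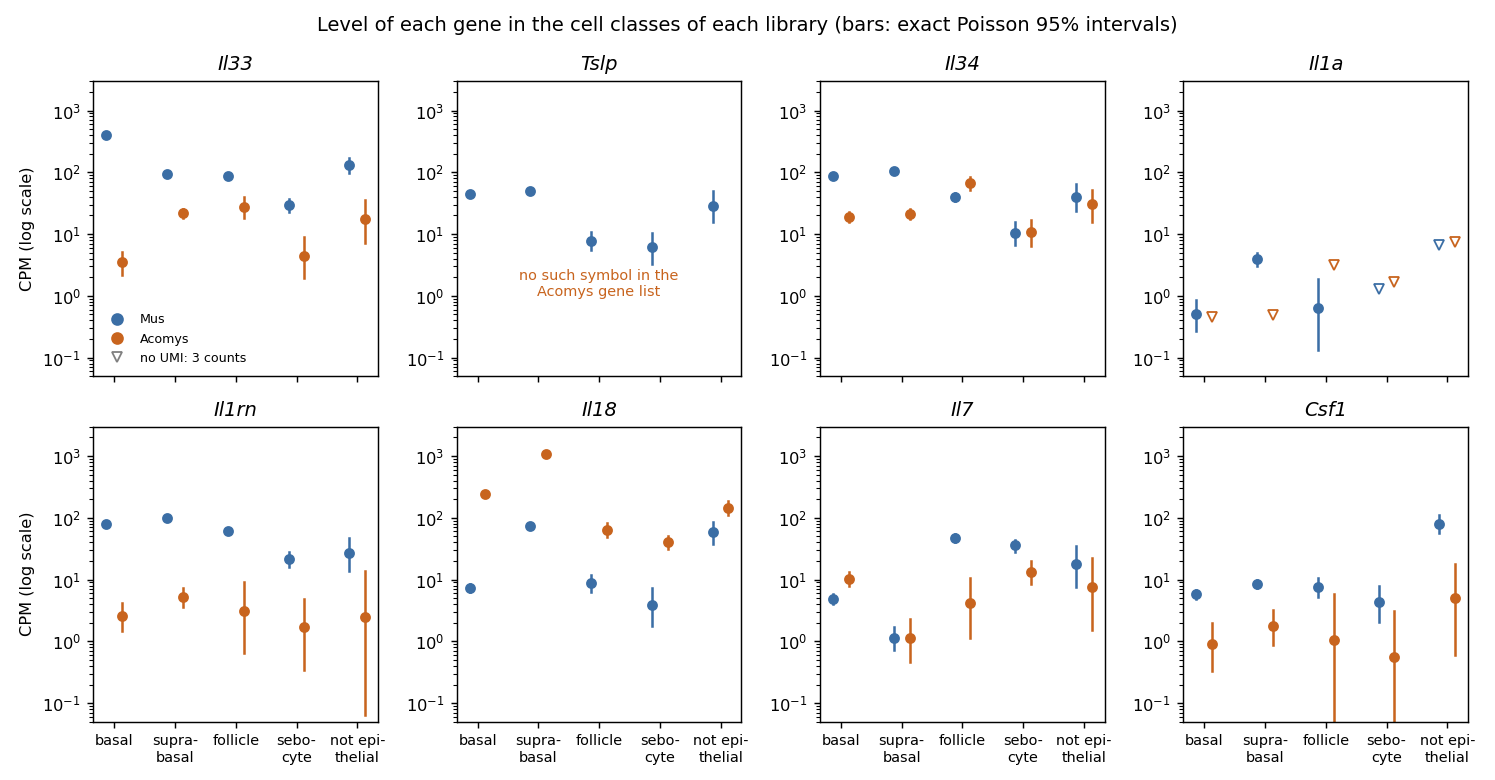
Level of each of the 8 genes (CPM, log axis) in the basal, suprabasal, follicle and sebocyte classes and in named cells outside the epithelium, for the Mus library (blue) and the Acomys library (orange), with exact Poisson 95% intervals as bars. Open triangles stand at 3 counts where a library had no UMI in the class. Il33 is highest in Mus basal cells at 404 CPM and Il18 in Acomys suprabasal cells at 1059.8 CPM.

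Free RNA in the droplets gives UMIs of a gene to cells that do not make it, and it was gauged in 2 ways. The first was the level in barcodes of 1 to 10 UMIs, which are too few to be cells. In Mus these held Il33 at 158 CPM (132 to 188), Il1rn at 76.1 CPM and Il34 at 71.2 CPM. In Acomys they held Il18 at 299 CPM (261 to 341), Il34 at 48.8 CPM, Il1rn at 13.2 CPM and Il33 at 11.9 CPM (5.42 to 22.5). The second was the share of cells with a UMI in blood endothelium-like cells (74 in Mus with a median of 5544.5 UMIs, 84 in Acomys with a median of 3357), a type outside the epithelium. Shares are given as measured and also after drawing 2500 UMIs from each cell, since no cell had fewer.

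Il33, a nuclear cytokine released from damaged cells, was a basal gene in Mus and nearly missing from the cells named basal in Acomys. In Mus its level was 404 CPM in basal cells (396 to 411.5), 93.8 in suprabasal cells (89.6 to 98.1), 88.7 in follicle cells (80.3 to 97.6) and 29.6 in sebocytes (23.0 to 37.5). Basal cells thus stood apart, and the suprabasal and follicle levels did not differ beyond their intervals. In Acomys the level was 3.48 CPM in basal cells (2.204 to 5.22), 21.5 in suprabasal cells (18.03 to 25.5), 27.4 in follicle cells (17.9 to 40.1) and 4.49 in sebocytes (1.94 to 8.84). The Acomys order was the reverse for the 2 keratinocyte layers, with 23 UMIs in 1085 basal cells and 133 in 767 suprabasal cells. The Acomys basal level was 116-fold lower than that of Mus (77.4 to 183) and the suprabasal level 4.35-fold lower (3.65 to 5.23). The ratio was smaller in follicle cells, 3.24-fold lower (2.18 to 5.02), and 6.59-fold lower in sebocytes (3.16 to 15.9). With unnamed clusters counted in, the Acomys basal level was 9.20 CPM against 407 in Mus, and with cells kept from 1000 UMIs the follicle levels were 42.2 CPM in Mus and 4.37 in Acomys. With 15 principal components, an Acomys cluster of 252 cells led by Il1r2 and Krt19 was named basal. It held Il33 at 35.4 CPM, from 34 UMIs, so the low Acomys basal level depends on which clusters are named basal.

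In Mus, 88.1% of basal cells held an Il33 UMI and 44.8% did so after thinning, against 13.5% and 5.41% of endothelium-like cells. Mus sebocytes stood at 20.9% and, after thinning, 3.36%, which is below endothelium and is read as background. In Acomys, 1.94% of basal cells held a UMI, against 1.19% of endothelium-like cells, and the basal level lay under that of barcodes of 1 to 10 UMIs. It was 2.46 CPM with 10% of the class subtracted as free RNA and 0 with 30%, so it was not told apart from background. Acomys suprabasal cells stood at 10.6% (3.52% after thinning), and the unthinned share was above the 1.19% of endothelium-like cells. Their level of 21.5 CPM lay within the interval of the smallest Acomys barcodes (5.42 to 22.5, from 9 UMIs). In Mus the suprabasal and follicle levels lay under the 158 CPM of the smallest barcodes, while their thinned shares, 12.8% and 11.8%, lay above that of endothelium-like cells. Among Mus basal clusters Il33 ranged from 219 CPM in a cycling cluster of 371 cells to 470 CPM in a resting cluster of 567 cells. Suprabasal clusters spread more widely in Mus, from 27.5 CPM in the cluster led by Krt24 and Krt78 to 238 CPM in a cluster led by Krt1. In Acomys the level was 31.1 CPM in one suprabasal cluster (406 cells) and 7.87 CPM in the other (361 cells), and 46.9 CPM in a follicle cluster of 153 cells. Il33 was a leading gene of the unnamed Mus cluster of 321 cells (443 CPM), so that cluster's level is no finding.

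Il18, whose product drives interferon gamma in T and natural killer cells, was high in the upper epidermis of both libraries but in far more Acomys cells. In Acomys its level was 245 CPM in basal cells (234 to 257.5), 1059.8 in suprabasal cells (1034 to 1086), 63.1 in follicle cells (48.2 to 81.3) and 39.8 in sebocytes (31.1 to 50.2). In Mus it was 7.26 CPM in basal cells (6.26 to 8.37), 73.9 in suprabasal cells (70.2 to 77.7), 8.84 in follicle cells (6.35 to 12) and 3.92 in sebocytes (1.79 to 7.43). Suprabasal cells stood highest in both libraries, 4.32-fold above basal cells in Acomys (4.09 to 4.57) and 10.2-fold in Mus (8.74 to 11.9). The Acomys level was 33.8-fold higher in basal cells (29.1 to 39.5), 14.4-fold in suprabasal cells (13.6 to 15.2), 7.14-fold in follicle cells (4.72 to 10.9) and 10.2-fold in sebocytes (5.07 to 23.2).

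The Acomys follicle and sebocyte values are read as background. An Il18 UMI was found in 18.8% of follicle cells and 19.6% of sebocytes, against 21.4% of endothelium-like cells, and after thinning in 9.59% and 5.38% against 14.3%. Both levels were also under the 299 CPM of the smallest barcodes. Acomys suprabasal cells stood clear of this background, with a UMI in 94.0% of cells (76.0% after thinning) and a median of 8 UMIs a cell. Basal cells held a UMI in 57.05% of cells and 29.4% after thinning. These basal UMIs were uneven. A resting basal cluster of 517 cells held 427 CPM, above the smallest barcodes. The other 3 basal clusters, among them a resting one of 246 cells, held 71.8 to 152 CPM, below them.

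In Mus most Il18 UMIs lay in 72 cells. This suprabasal cluster, led by Wfdc21, Flg2, Lor and Hrnr, genes of the granular layer, held 1338 of the 1769 Il18 UMIs in Mus cells, 75.6%, with 1.85% of all UMIs of shared symbols. Its level was 1294 CPM (1226 to 1366), and 53 of its 72 cells held a UMI. The highest cell held 114 UMIs, and without it the level was 1222 CPM. In the other Mus clusters of at least 50 cells Il18 lay between 1.87 and 16.0 CPM, all below the 25.8 CPM of the smallest Mus barcodes (16.0 to 39.4). The Mus suprabasal class level of 73.9 CPM is thus carried by 1 cluster, and the 3 other suprabasal clusters held 4.41 to 16.0 CPM. Il18 was a leading gene of both Acomys suprabasal clusters and not of the Mus cluster. When all 8 genes and the pathway genes were left out of the clustering, a Mus cluster of 64 cells held 74.7% of the Il18 UMIs at 1410.5 CPM, and the Acomys suprabasal class stood at 1064.6 CPM. At a coarser resolution the same rise was diluted, with 253 CPM in a Mus cluster of 409 cells.

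**Figure D2:**
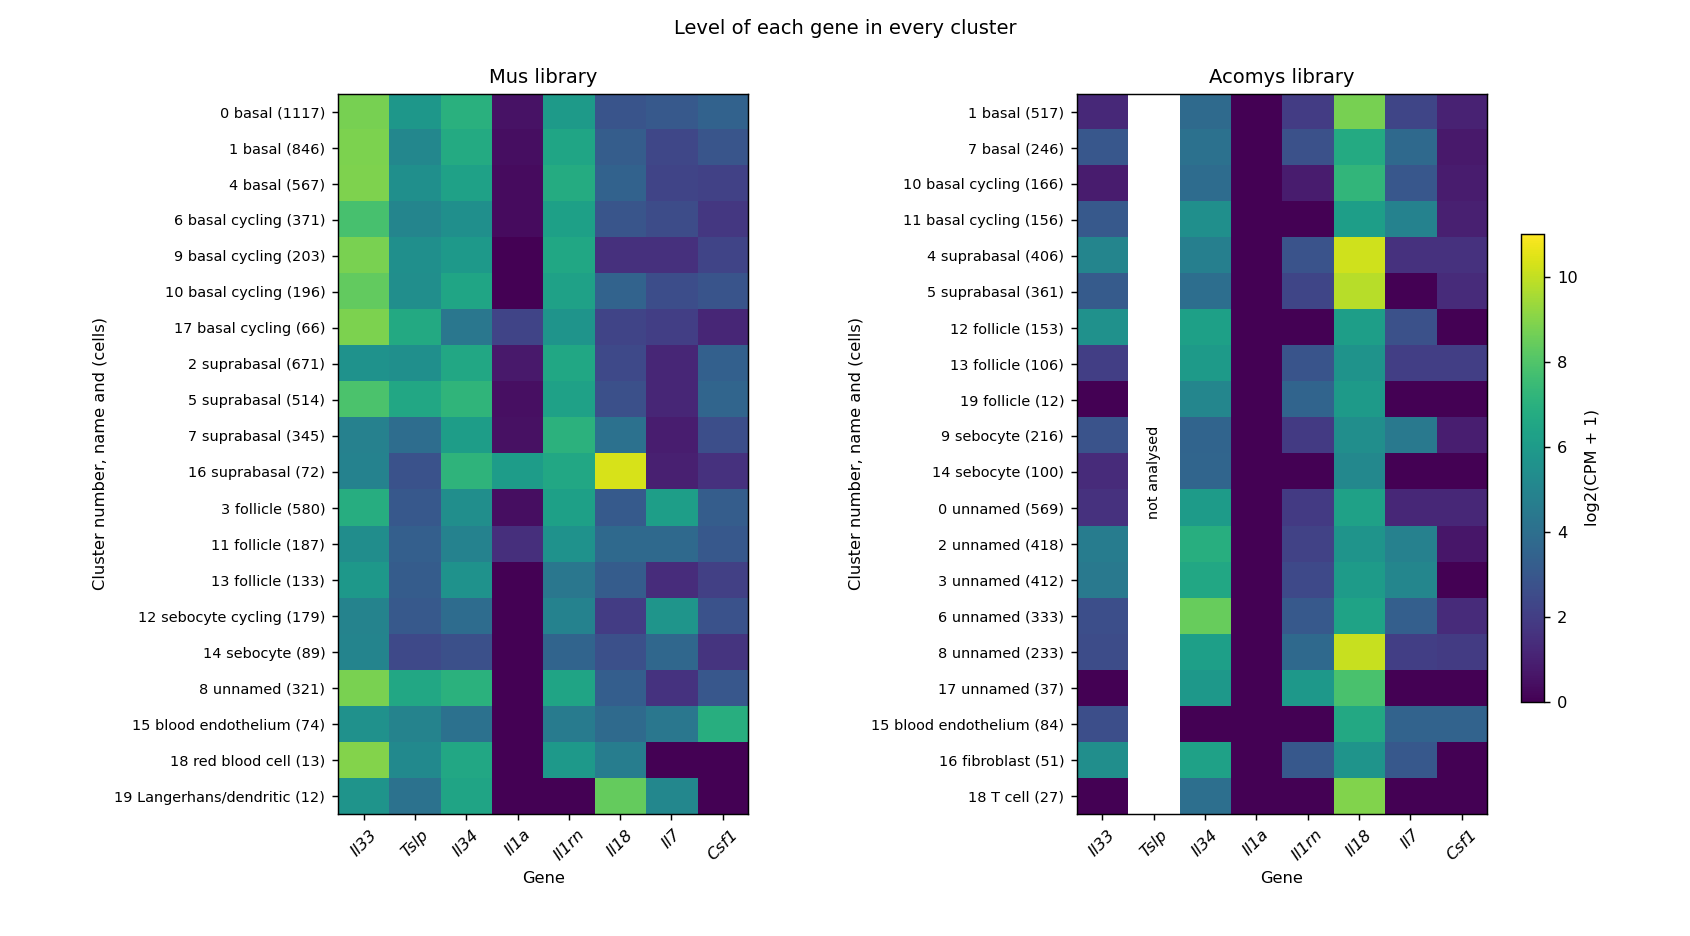
Level of the 8 genes in every cluster of the Mus library (left) and the Acomys library (right), as log2(CPM + 1) from dark (0) to bright, with the cluster number, its marker-based name and its number of cells; the white column is Tslp, not analysed in Acomys. The bright Il18 cells in Mus are the suprabasal cluster of 72 cells (1294 CPM), whereas in Acomys both suprabasal clusters and the unnamed cluster of 233 cells are bright (909 to 1165 CPM).

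Il1a, the alarmin that signals through the IL-1 receptor, was rare and was found in the same 72 Mus cells. Mus cells held 94 Il1a UMIs, 68 of them in this cluster, at 65.8 CPM (51.1 to 83.4) there and at most 3.74 CPM in any other cluster. The 68 UMIs came from 10 cells, the highest with 22, and without that cell the level was 45.5 CPM. Of these 10 cells 9 also held Il18, with a median of 20.5 Il18 UMIs against 4 in the other cells of the cluster, and their median UMI totals were 21075.5 and 18849. In Acomys no cell held an Il1a UMI and 4 UMIs were found over all barcodes. The Acomys suprabasal level was at least 8.004-fold lower than the Mus level of 3.89 CPM, against a floor of 3 counts in the class. The other classes held too few UMIs in either library for a ratio.

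Il1rn, which encodes the antagonist of the same receptor, was broadly present in Mus keratinocytes and low in all Acomys classes. In Mus its level was 79.7 CPM in basal cells (76.3 to 83.2), 98.3 in suprabasal cells (94.0 to 102.7), 61.7 in follicle cells (54.7 to 69.3) and 21.3 in sebocytes (15.8 to 28.2). The layers differed little, with the suprabasal level 1.23-fold above the basal one (1.16 to 1.31). An Il1rn UMI was found in 41.7% of Mus basal and 63.2% of suprabasal cells, and after thinning in 11.1% and 14.0%, against 9.46% and 1.35% of endothelium-like cells. In Acomys the level was 2.57 CPM in basal cells (1.497 to 4.11), 5.18 in suprabasal cells (3.54 to 7.31), 3.16 in follicle cells and 1.68 in sebocytes, the last 2 from 3 UMIs each. All 4 were under the 13.2 CPM of the smallest Acomys barcodes (6.32 to 24.2). With 10% of each class subtracted as free RNA, 4.28 CPM was left in suprabasal and 1.28 in basal cells. With 30% subtracted, 1.67 CPM was left in suprabasal cells and 0 in basal cells, follicle cells and sebocytes. How much of these levels is background was therefore not settled. The Acomys level was 31.03-fold lower in basal cells (19.3 to 53.4) and 18.97-fold lower in suprabasal cells (13.4 to 27.8). Among Acomys clusters of at least 50 cells the highest Il1rn level was 12.4 CPM (8.82 to 16.8), in the unnamed cluster of 233 cells led by Klk5, S100a8 and Serpina12, where 15.02% of cells held a UMI. In Mus, Il1rn ranged from 51.1 to 133 CPM across all 11 basal and suprabasal clusters, highest in the cluster led by Krt24 and Krt78.

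Tslp, a cytokine of barrier tissues that acts on dendritic cells, was measured in Mus only. Its level was 45.3 CPM in basal cells (42.7 to 47.9), 49.4 in suprabasal cells (46.4 to 52.6), 7.76 in follicle cells (5.44 to 10.75) and 6.09 in sebocytes (3.33 to 10.2). The 2 keratinocyte layers were close, at 1.09-fold (1.002 to 1.19), and the follicle level was 5.83-fold below the basal one (4.19 to 8.37). A UMI was found in 23.0% of basal and 33.1% of suprabasal cells, against 10.8% of endothelium-like cells. After thinning the shares were 6.001%, 7.80% and 4.05%, and both layer levels were close to the 46.7 CPM of the smallest Mus barcodes (33.01 to 64.0). Within the suprabasal class Tslp fell from 96.3 CPM in the cluster led by Krt1 to 44.1, 14.5 and 5.80 CPM in the other 3 clusters, the lowest being the 72 cells with high Il18. Tslp was a leading gene of that Krt1 cluster and of the unnamed cluster of 321 cells (96.7 CPM), which makes these levels a description of how the clusters were drawn. The basal cluster of 66 cells led by Krt6a and Krt16, keratins of stressed epidermis, held 101.5 CPM, but 90 of its 163 UMIs lay in 1 cell, and without that cell the level was 46.3 CPM.

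Il34, the ligand that maintains Langerhans cells, was spread over the Mus keratinocytes but gathered in unnamed clusters in Acomys. In Mus its level was 86.9 CPM in basal cells (83.3 to 90.5), 105 in suprabasal cells (100.7 to 109.8), 39.9 in follicle cells (34.4 to 46.1) and 10.4 in sebocytes (6.69 to 15.5). In Acomys it was 18.7 CPM in basal cells (15.6 to 22.3), 21.2 in suprabasal cells (17.7 to 25.2), 66.3 in follicle cells (50.9 to 84.8) and 10.7 in sebocytes (6.42 to 16.6). Keratinocyte layers led in Mus and follicle cells in Acomys. The Acomys level was 4.63-fold lower in basal cells (3.87 to 5.60) and 4.96-fold lower in suprabasal cells (4.16 to 5.96), and both Acomys levels lay under the 48.8 CPM of the smallest barcodes (34.3 to 67.2). It was 1.66 times the Mus level in follicle cells (1.23 to 2.22) and 1.02 times in sebocytes (0.529 to 1.94), an interval that spans 1. With cells kept from 1000 UMIs, the cluster led by Krt79 was named follicle in Acomys, and the follicle levels were 282 CPM in Acomys and 31.9 in Mus. After thinning, 12.98% of Mus basal cells held a UMI against 4.05% of endothelium-like cells. In Acomys, no UMI was found in the 84 endothelium-like cells, which allows a share of cells with a UMI of up to 3.57% (3 counts of 84), and 2.49% of basal cells held one after thinning.

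Unnamed clusters held 80.0% of the Acomys Il34 UMIs, although they held 39.7% of all UMIs of shared symbols. The highest level in Acomys, 344 CPM (319 to 372), was in the unnamed cluster of 333 cells led by Krt79, a keratin of the upper hair follicle, of which Il34 was itself a leading gene. The follicle cluster of 187 cells led by Krt79 in Mus held 28.6 CPM (19.6 to 40.4). Clustering without the 8 genes and the pathway genes gave an unnamed Acomys cluster of 333 cells at 343 CPM. Next came the unnamed clusters led by Il1r2 and Cyp1a1 (117 CPM) and by Fst (94.7 CPM), which held basal markers. When unnamed clusters were counted in the class whose markers they held most of, the suprabasal log2 ratio moved from -2.30 to -0.22 and the basal one from -2.21 to -0.80 (52.1 CPM against 90.5). The lower Il34 of both Acomys layers thus rests on which clusters are counted in them.

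Csf1, the other ligand of CSF1R, had its highest Mus level in the main selection in blood endothelium-like cells. The epithelial classes, with far more cells, held most of its UMIs. With cells kept from 1000 UMIs, the highest Mus level was 214 CPM, in 84 fibroblast-like cells. From 500 UMIs it was 125 CPM, in 183 fibroblast-like cells. Mus levels were 5.76 CPM in basal cells (4.88 to 6.76), 8.52 in suprabasal cells (7.29 to 9.90), 7.55 in follicle cells (5.26 to 10.5) and 4.35 in sebocytes (2.09 to 8). All 4 were below the 11.05 CPM of the smallest Mus barcodes (5.05 to 20.98), a level from 9 UMIs. With 30% of each class subtracted as free RNA, 3.51 CPM was left in basal and 7.46 in suprabasal cells. Follicle cells kept 6.12 CPM and sebocytes 1.62. The true share of free RNA in a class was not measured, so how much of epithelial Csf1 it makes up was not settled. Blood endothelium-like cells held 118 CPM (82.4 to 163), and named cells outside the epithelium held 8.59% of the Csf1 UMIs with 0.801% of all UMIs of shared symbols. In Acomys only 36 UMIs were found in 4603 cells, with 0.907 CPM in basal cells (0.333 to 1.97) and 1.78 in suprabasal cells (0.889 to 3.19). The Acomys level was 6.35-fold lower in basal cells (2.85 to 17.6) and 4.79-fold lower in suprabasal cells (2.61 to 9.77). Acomys endothelium-like cells held 10.4 CPM from 2 UMIs (1.26 to 37.5). Of the 8 genes, Csf1 is thus the one whose highest Mus cluster of at least 50 cells lay outside the epithelium in the main selection.

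Il7, a survival factor of T cells, was a gene of follicle and sebaceous cells in Mus. Its Mus level was 47.2 CPM in follicle cells (41.2 to 53.9), 35.7 in sebocytes (28.4 to 44.3), 4.88 in basal cells (4.07 to 5.80) and 1.15 in suprabasal cells (0.727 to 1.72). Follicle cells stood 9.68-fold above basal cells (7.75 to 12.2) and sebocytes 7.31-fold (5.47 to 9.73). In Acomys it was 13.5 CPM in sebocytes (8.63 to 20.03), 10.3 in basal cells (7.98 to 13.03), 4.21 in follicle cells (1.15 to 10.8) and 1.13 in suprabasal cells (0.456 to 2.34). Suprabasal cells were lowest in both libraries. The Acomys level was 11.2-fold lower in follicle cells (4.32 to 41.6), from 4 UMIs, and 2.65-fold lower in sebocytes (1.66 to 4.37), but 2.11-fold higher in basal cells (1.55 to 2.85). With cells kept from 1000 UMIs the follicle levels were 15.3 CPM in Mus and 8.73 in Acomys, and from 500 UMIs the follicle log2 ratio turned to 0.0504. Without cycling clusters the basal levels were 5.31 CPM in Mus and 6.85 in Acomys, within 2-fold. The Mus basal level lay under the 8.59 CPM of the smallest Mus barcodes (3.46 to 17.7). Those of Acomys held 2.64 CPM (0.319 to 9.52) from 2 UMIs, below its basal level. After thinning, 7.33% of Mus follicle cells and 8.58% of sebocytes held a UMI, against 5.41% of endothelium-like cells (4 of 74 cells). Endothelium is no clean gauge of free RNA for Il7. With cells kept from 1000 UMIs, lymphatic endothelium-like cells held its highest Mus level. The Mus follicle and sebocyte levels lay above the 8.59 CPM of the smallest Mus barcodes.

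Single clusters carried these Il7 levels. In Mus the follicle cluster led by Ccl27a and Sostdc1 (580 cells) held 70.1 CPM, while the other follicle clusters held 12.51 and 1.65 CPM. The cycling sebocyte cluster of 179 cells held 51.8 CPM and the resting one 11.8 CPM. Without cycling clusters the sebocyte log2 ratio turned from -1.38 to 0.15. In Acomys the highest levels among clusters of at least 50 cells were 32.5 CPM in the unnamed cluster led by Fst, 28.0 in a cycling basal cluster and 27.4 in the unnamed cluster led by Il1r2 and Cyp1a1. With cells kept from 1000 UMIs, the highest Mus level was 232 CPM, in 145 lymphatic endothelium-like cells that were too small for the main selection.

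**Figure D3:**
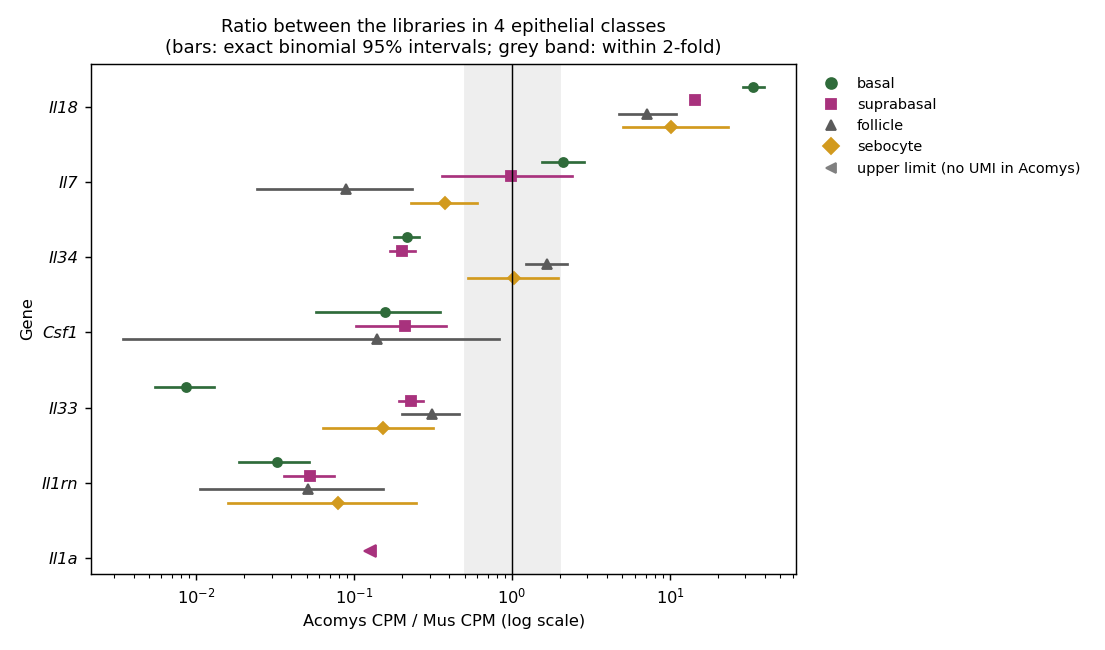
Ratio of the Acomys to the Mus level (log axis) of the 7 genes in both gene lists in 4 epithelial classes, with exact binomial 95% intervals, for genes with at least 20 UMIs over both libraries in the class. The grey band marks ratios within 2-fold, and the triangle is the upper limit for Il1a. Il18 lies right of the band in all 4 classes (7.14 to 33.8), Il33 and Il1rn left of it, and Il7 and Il34 change side between classes.

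The most differentiated clusters of each library were set side by side after their values were seen. Serpina12 and Cnfn, genes of late differentiation, led both the Mus suprabasal cluster of 72 cells and the unnamed Acomys cluster of 233 cells. Il18 was nearly level between them, with 1294 CPM in the Mus cluster and 1063.5 in the Acomys cluster. Il1a stood at 65.8 CPM in Mus and had no UMI in Acomys, where 3 counts would be 0.926 CPM. Il1rn was at 95.8 and 12.4 CPM, Il34 at 143 and 73.8 CPM, and Il33 at 28.05 and 4.94 CPM. The Acomys difference in Il18 between whole suprabasal classes was therefore not seen between these 2 clusters. Their median UMI totals were 18849 in Mus and 19998 in Acomys.

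The number of these genes found in a cell depends on its depth, so it was counted after thinning. With 2500 UMIs drawn from each cell, 41.6% of Mus basal cells held none of the 8 genes, 46.05% held 1, 11.4% held 2, 0.951% held 3 and 1 cell held 4. In Acomys suprabasal cells, where Il18 was high, 71.6% held 1 gene and 6.52% held 2. Sebocytes held fewest in both libraries, with none in 84.3% of Mus and 89.2% of Acomys cells.

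**Figure D4:**
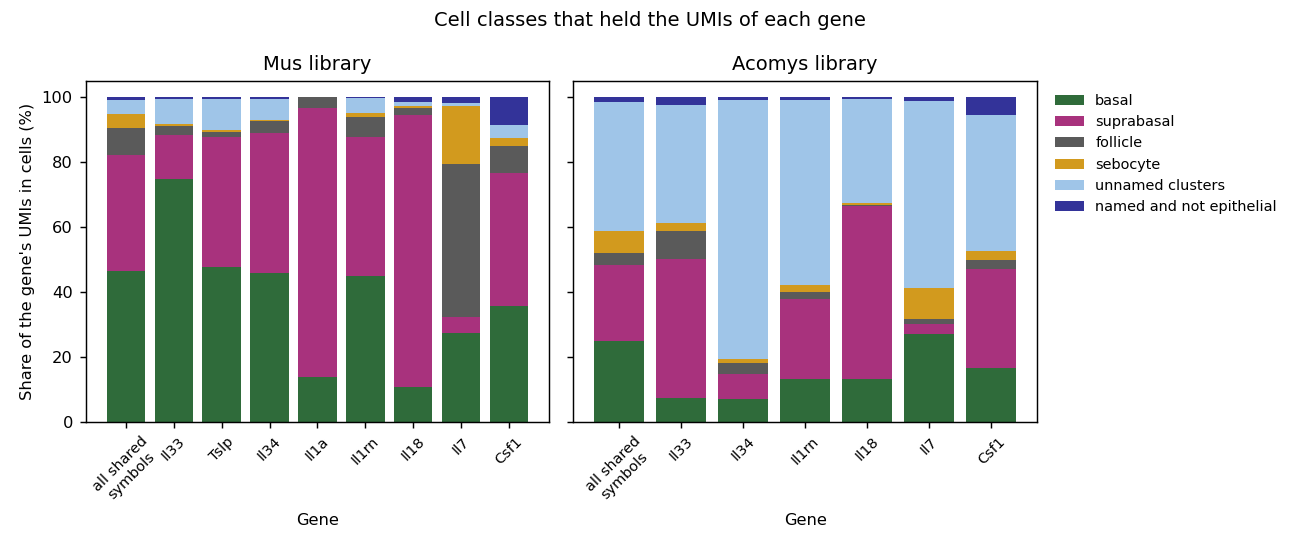
Share (%) of the UMIs of each gene, and of all symbols in both lists, that lay in each cell class of the Mus library (left) and the Acomys library (right). Basal cells held 74.9% of the Mus Il33 UMIs, suprabasal cells 83.8% of the Mus Il18 UMIs and unnamed clusters 80.0% of the Acomys Il34 UMIs.

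Most of the receptor genes that could be measured lay within 2-fold between the libraries in keratinocytes. Of 13 receptor genes listed, 11 had a shared symbol. Il1r1 and Il18rap had none, and Il1rl1 and Il7r held too few UMIs for a ratio in either keratinocyte layer. In basal cells 2 of 9 measured exceeded the Mus level by at least 2-fold and 1 fell short of it as far, and in suprabasal cells 0 and 1 of 7, beside the 15.1% higher and 41.3% lower of all symbols in basal and the 14.9% and 43.4% in suprabasal cells, with medians of 0.07 and 0.52 on the log2 scale. Il1r2, the decoy receptor of IL-1, stood at 194 CPM in Mus and 203 CPM in Acomys basal cells, a ratio of 1.05 (0.987 to 1.11). It led a cluster in each library, Mus basal cells and unnamed Acomys cells. Il1rap, the shared signalling chain of the IL-1 and IL-33 receptors, was at 10.8 and 11.2 CPM, and Sdc1, a proteoglycan that binds IL-34, at 340.5 and 420 CPM in basal cells. Ptprz1, a further IL-34 receptor, was at 17.3 and 25.2 CPM. Sigirr, a brake on IL-1 family signalling, was 7.70-fold lower in suprabasal cells (2.02 to 65.3), from 2 Acomys UMIs, but 3.39-fold higher in basal cells (2.03 to 5.64), from 31. Outside the keratinocyte layers Il1r2 was 41.3-fold higher in Acomys sebocytes (27.8 to 64.2), at 449 CPM against 10.9.

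Genes that process, release or bind these cytokines moved in both directions. Of 22 listed, 17 had a shared symbol. In basal cells 3 of 15 measured were higher in Acomys by that limit and 5 were lower, and in suprabasal cells 3 and 6 of 15, against 15.1% and 41.3% of all symbols in basal and 14.9% and 43.4% in suprabasal cells. Casp4, an inflammatory caspase gene, was 13.5-fold higher in Acomys basal cells (10.03 to 18.4), with 30.1 CPM against 2.23, and 27.1-fold in suprabasal cells (16.4 to 47.9). Casp1, the main enzyme of IL-18 maturation, was 3.02-fold higher in basal cells (2.49 to 3.66) and 2.35-fold in suprabasal cells. Il18bp, which binds and blocks IL-18, was 4.59-fold higher in basal cells (1.97 to 10.9) from 14 Acomys UMIs. Pycard, the adaptor of inflammasomes, was at 445 CPM in Mus and 712 CPM in Acomys basal cells but at 1361 and 722 CPM in suprabasal cells. Lower in Acomys were Nlrp10, an inflammasome receptor of keratinocytes (40.0-fold in basal cells, 19.4 to 99.7), and Casp8 (13.9-fold, 8.05 to 26.2). The calpain genes Capn2 (20.3-fold, 12.1 to 37.3) and Capns1 (10.3-fold, 8.89 to 12.0), whose proteases cut the IL-1 alpha precursor, were lower too, while Capn1 was 1.73-fold higher (1.60 to 1.86). Anxa2 (2987 and 2691 CPM), Hax1 (68.8 and 118 CPM) and, in suprabasal cells, Gsdma (95.5 and 32.4 CPM) were the other genes of high level.

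Other epidermal cytokines moved in both directions. Of 38 listed, 33 had a shared symbol. By the same limit, 5 of 20 measured in basal cells were higher in Acomys and 10 were lower, and in suprabasal cells 3 and 7 of 17, with medians of -0.89 and -0.53 on the log2 scale. All symbols stood at 15.1% higher and 41.3% lower in basal cells, and 14.9% and 43.4% in suprabasal cells. Kitl, the ligand of KIT, rose from 24.04 CPM in Mus basal cells to 110 CPM, 4.58-fold higher (4.11 to 5.11), but was 14.2 CPM in Mus and 8.42 in Acomys follicle cells. Flt3l, which expands dendritic cells, was 5.44-fold higher in basal cells (4.54 to 6.53). Genes of the IL-36 and IL-38 branch did not move together. Il1f10, encoding IL-38, was 18.1-fold higher in basal cells (11.8 to 28.5) but 3.96-fold lower in suprabasal cells (2.78 to 5.83), while Il1f5, encoding the IL-36 receptor antagonist, was 92.3-fold lower in suprabasal cells (46.8 to 214), at 1.30 against 119.5 CPM. Il1f6, encoding IL-36 alpha, had no UMI in Acomys suprabasal cells and was at least 64.03-fold lower. The 2 genes of highest level, Hmgb1 and Mif, were within 2-fold in both layers, and Tgfb1 was 2.37-fold lower in basal cells (2.07 to 2.73).

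Relay and regulator genes stood near the shares of all symbols. Of 26 listed, 25 had a shared symbol and were measured in basal cells, where 3 rose above the limit in Acomys and 11 fell below it, and in suprabasal cells, where 3 were higher and 12 lower. Beside these stand 15.1% higher and 41.3% lower of all symbols in basal cells, and 14.9% and 43.4% in suprabasal cells. The medians were -0.75 and -0.85 on the log2 scale, beside -0.53 and -0.62 over all symbols. The lowest ratios were those of Rxrb (no Acomys UMI in basal cells, at least 62.3-fold lower) and Irak1, a kinase of IL-1 receptor signalling (41.2-fold lower in basal cells, 19.95 to 102.8). Rxra (37.6-fold, 18.2 to 93.9) and Vdr, the vitamin D receptor (25.8-fold, 14.4 to 51.8), followed. Among the genes of highest level were Nfkbia (331 and 189 CPM in basal cells), Jak1 (106 and 138 CPM) and Notch1 (85.9 and 51.5 CPM).

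The genes that followed each cytokine most closely across clusters were listed by a rule that took the 3 highest Pearson r on log2(CPM + 1) over clusters of at least 50 cells. In Mus (18 clusters, 7705 genes), Il18 was followed most closely by Lor (r = 0.963), Smap2 (0.963) and Psors1c2 (0.957), and Il1a by genes that included Lce1g (0.953) and 2210017I01Rik (0.952). In Acomys (17 clusters, 5316 genes), Il18 was followed by Abhd12b (0.952), Krt10 (0.942) and Tent5b (0.925). Lor is a protein of the cornified envelope and Krt10 a keratin of all suprabasal layers. Mus Il33 was followed by Sox15 (0.938), Tiparp (0.926) and Fam212b (0.924), and Acomys Il33 by Nkd2 (0.842), Ap3d1 (0.677) and Rgs10 (0.663). Tslp was followed by Igfbp3 (0.873), Sec14l2 (0.869) and Fam46a (0.859). For Il34 the genes were Rhbdl2 (0.928), Kif21a (0.920) and Tmem65 (0.884) in Mus, and Ckap4 (0.847), Mcoln1 (0.845) and Irx3 (0.835) in Acomys. For Il1rn they were Il20rb (0.915), Chit1 (0.907) and Fam83g (0.888) in Mus, and Rab38 (0.837), Fyco1 (0.8003) and Cars (0.791) in Acomys. For Il7 they were Dlc1 (0.889), Aldh1a1 (0.887) and Gsta3 (0.874) in Mus, and Cyp4b1 (0.768), Ywhae (0.761) and Ptpn1 (0.753) in Acomys. Mus Csf1 was followed by Cst3 (0.907), Cldn5 (0.899) and Ptprb (0.890), the last 2 genes of endothelium. All clusters of a library share its animal, free RNA and depth, and the clusters were drawn from these genes, so the r values are descriptions.

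Markers of other cell types were summed in the 4 epithelial classes. Summed macrophage markers (11 genes, 10 of them in the Acomys list) ranged from 8.99 to 12.1 CPM over the 4 Mus classes and from 1.12 to 5.74 CPM over the Acomys classes, with Cd163 at 0 in every class but Mus basal cells. Langerhans and dendritic markers (10 genes, 8 of them in the Acomys list) summed to 297 to 847 CPM in Mus and 594 to 1475 CPM in Acomys, with Flt3 at 0 in all classes but Mus suprabasal cells. This list includes Epcam and Mfge8, genes not confined to these cells, and the sums were not split by gene. They are thus no gauge of Langerhans cells alone. T cell markers (13 genes, 11 of them in the Acomys list) summed to 39.2 to 199 CPM in Mus, with 1 to 6 of them at 0, and to 22.7 to 53.7 CPM in Acomys, with 1 to 3 at 0. Fibroblast markers summed to 59.6 to 151 CPM in Mus and 123 to 338 CPM in Acomys, where Pdgfra and Dpt were at 0 in all 4 classes. Mast cell markers stayed at or below 1.29 CPM in every class. Il18 was also found at 334.5 CPM in 12 Langerhans and dendritic-like Mus cells and at 488 CPM in 27 T cell-like Acomys cells, from 20 and 32 UMIs. In these Mus cells 11 of the 20 UMIs lay in 1 cell, so the level is not one of the cell type. The part of these other cell types in the epithelial levels was not tested. The libraries shared 31 cell barcodes, with 40.9 expected from their sizes.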

How the data were processed

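Both libraries were deposited as raw UMI counts per gene and barcode. Per the submitters' processing notes, Cell Ranger 2.2.0 and the build mm10 were used. How Acomys reads were matched to genes is not stated in these sources, and 8324 of its 24509 names are identifiers with no symbol. The 8 genes and the pathway and marker lists were chosen with earlier results of these data known. Barcodes were kept as cells above 10% of the 99th percentile of the UMI totals of the 3000 largest barcodes, with at least 200 genes and, in Mus, at most 20% mitochondrial UMIs (the Acomys list held no mitochondrial gene). The Scrublet method removed 386 Mus and 183 Acomys barcodes as doublets, set at 0.8% for every 1000 cells. From 2000 variable genes, 30 principal components and 20 neighbours, Leiden clusters were drawn at resolution 1 (scanpy 1.11.5, leidenalg 0.10.2). A cluster took the name of the type with most markers, at least 3, present in 20% of its cells at 1.5-fold over the rest, and stayed unnamed where another type led among its 10 leading genes. UMIs were summed per class over the shared symbols, which held 60.7 to 63.8% of class UMIs in Mus and 64.1 to 69.8% in Acomys. With 1 library per species no test was made. Log2 ratios add 0.5 counts to each sum. In basal and suprabasal cells, list genes were named by level (the 4 highest in either library) and by ratio (up to 4 at least 4-fold apart, ranked by the near end of the interval). Casp1, Il18bp and the sebocyte value of Il1r2 were added after their values were seen. Some genes that the rules named are not reported here. The interval code was tested on simulated counts. Alternatives covered the cell minimum, doublets, resolution, components, genes used for clustering, unnamed and cycling clusters, scaling, free RNA and the fold limit.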

Additional observations from a re-analysis of the deposited data

Results flagged for a closer look

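Il33 ran in opposite directions between the keratinocyte layers of the 2 libraries. The log2 ratio of the basal to the suprabasal level was 2.11 in Mus (10512 and 1881 UMIs, 404 and 93.8 CPM) and -2.60 in Acomys (23 and 133 UMIs, 3.48 and 21.5 CPM). With 1 library of each species the difference was not tested. Barcodes of 1 to 10 UMIs, which gauge free RNA, held Il33 at 158 CPM in Mus and 11.9 CPM in Acomys (5.42 to 22.5, from 9 UMIs). The Acomys basal and the Mus suprabasal level lie below them, and the Mus basal level lies above them. The Acomys suprabasal level lies within the Acomys interval. The opposite signs were kept in 11 alternatives, which ranged from 1.42 to 2.31 in Mus and from -3.16 to -0.61 in Acomys. With 30% free RNA subtracted, the ratio was 2.89 in Mus and -7.84 in Acomys. The Acomys level was then 0 CPM in basal cells and 25.2 CPM in suprabasal cells. No basal Il33 was thus left to compare in Acomys, and the counts added to each sum set the size of that ratio.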

How the results depend on the processing

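No paired analysis was possible because each species had 1 library and the labels give no replicate numbers. Under the alternatives, values of single genes stayed within their 95% interval in 392 cases, moved beyond it in 118 and reversed a difference in 5. Counts of genes past the 2-fold limit stayed within 1.5 times the reported count in 115 cases and moved further in 21. The number of genes higher in Acomys follicle cells was 2 with cells kept from 1000 or 500 UMIs, with no doublet removal, at resolution 0.5, with 15 principal components and with the 8 genes and pathway genes left out of clustering. In sebocytes the number higher was 2 from 500 UMIs, with no doublet removal, with 15 components and in that left-out clustering, and 0 with 10% or 30% free RNA subtracted; the number lower was 1 from 500 UMIs, without cycling clusters and with 30% subtracted. In basal cells the number higher was 1 at resolution 0.5, without cycling clusters, centred on genes of at least 50 CPM, as a mean over cells and at a limit of 4-fold, and in suprabasal cells it was 2 with unnamed clusters counted in. The log2 ratio of Il7 reversed to 0.0504 in follicle cells from 500 UMIs and to 0.15 in sebocytes without cycling clusters. With 30% free RNA subtracted, an alternative chosen after seeing the data, the log2 ratio of Il18 turned to -1.61 in follicle cells. In sebocytes that of Il33 turned to 2.27 and that of Il1rn to 0.41. A level of 0 was left in the Acomys class for Il18, in the Mus class for Il33 and in both for Il1rn. The size of these 3 ratios thus rests on the 0.5 counts added to each sum. The cause of these moves was not tested. Over the 14 alternatives other than the 30% subtraction, the basal log2 ratio ranged from -7.41 to -5.36 for Il33, from -2.92 to -0.80 for Il34 and from 0.38 to 1.74 for Il7, and the suprabasal ratio of Il18 from 3.60 to 4.24. Acomys cells held 0 UMIs of Il1a and 36 of Csf1, which sets wide intervals for ratios of both.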
